A study of Caenorhabditis elegans with 14 samples.

Results

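The small RNA reads of 7 Caenorhabditis elegans genes of the heat shock and chaperone system were followed across 9 small RNA libraries made from embryos. The genes were chosen by name: hsp-1, hsp-90, hsp-3, hsp-4, hsp-6, hsp-60 and hsf-1, which are 7 of 45510 genes in the count tables. Of the 14 libraries in the series, 4 held small RNA bound to NRDE-3, the nuclear Argonaute protein that binds small interfering RNAs (siRNAs), and 5 held total small RNA; the other 5, of ribosomal RNA tails, were not used here. NRDE-3-bound RNA came from eri-1(mg366) embryos given 50 mJ/cm2 of ultraviolet light (UV) and 2 hours of recovery, from eri-1(mg366) and N2 embryos kept for 12 hours at 4 °C and then for 2 hours at 20 °C (cold shock), and from eri-1(mg366) embryos without UV. All 4 of these libraries came from worms that carried the tagged transgene 3xflag::gfp::nrde-3, which the pull-down needs. Total small RNA came from eri-1(mg366);3xflag::gfp::nrde-3 embryos with and without the same UV dose, from cold-shocked wild-type N2, from susi-1(R457H) and from untreated N2, with no transgene named for the N2 and susi-1 strains. The eri-1 mutation removes an exonuclease that acts in endogenous RNA interference, and susi-1 encodes the worm homolog of the exonuclease DIS3L2.

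Chaperones bind unfolded proteins and help them fold. The HSP70 family includes hsp-1, the constitutive form of the cytosol, hsp-3 and hsp-4, a pair of BiP paralogs of the endoplasmic reticulum (ER), and hsp-6, the mitochondrial form. The cytosolic HSP90 is encoded by hsp-90, also known as daf-21, and hsp-60 encodes the mitochondrial chaperonin. The transcription factor encoded by hsf-1 drives heat shock genes when proteins misfold. Antisense small RNAs of a protein-coding gene in this animal are mostly siRNAs copied from the mRNA by RNA-dependent RNA polymerases, whereas sense small RNAs of the same length class include fragments of the mRNA itself.

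On WBcel235, by WormBase gene ID, hsp-1 (WBGene00002005) lies at IV:17278959-17281330 on the plus strand and hsp-90 (WBGene00000915) at V:14684918-14688545 on the plus strand. The ER genes hsp-3 (WBGene00002007) and hsp-4 (WBGene00002008) lie at X:6089028-6092124 and II:7350112-7352645, both on the minus strand. The mitochondrial genes hsp-6 (WBGene00002010) and hsp-60 (WBGene00002025) lie at V:4824124-4826760 on the minus strand and III:1619742-1625803 on the plus strand. The regulator hsf-1 (WBGene00002004) lies at I:11953507-11963085 on the minus strand. Exons of hsp-90 overlapped exons of 1 gene on the opposite strand, C47E8.4, and those of the other members overlapped none. Reads were summed over the exonic transcript entries of a gene, 20 entries for the 7 genes, so no position within a gene is known.

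Each group was 1 library, so every ratio below compares 2 libraries and has no replicate check. Libraries held 4013277 to 10349062 assigned reads, of which 51.8% to 95.6% were ribosomal (rRNA). Values are reads per 1000000 non-rRNA reads (CPM), of which a library had 357435 to 3123387. Ratios have exact conditional binomial 95% intervals, which cover counting error only, because PCR copies were not marked. A gene was called higher or lower where it had 20 or more reads of the strand in the pair, a ratio of 2 or more or 0.5 or less, and an interval that excluded 1. The 8 embryonic microRNAs mir-35 to mir-42 were detected in every library, at 2293 to 101992 CPM, and 4 larval microRNAs (let-7, lin-4, mir-84, mir-241) summed to 33.9 to 756 CPM. The NRDE-3 libraries of eri-1 with and without UV stood apart. They had antisense reads at 488 and 384 protein-coding genes with medians of 93.5 and 71 reads per detected gene, while the other libraries had 4895 to 12072 such genes with medians of 1 to 16 reads. Of those genes 103 were in both, 21.1% of the list with UV and 26.8% of the list without. Coding reads of these NRDE-3 libraries were 4.51% antisense with UV and 2.15% without, against 12.8% to 96.3% in the other libraries.

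**Figure D1:**
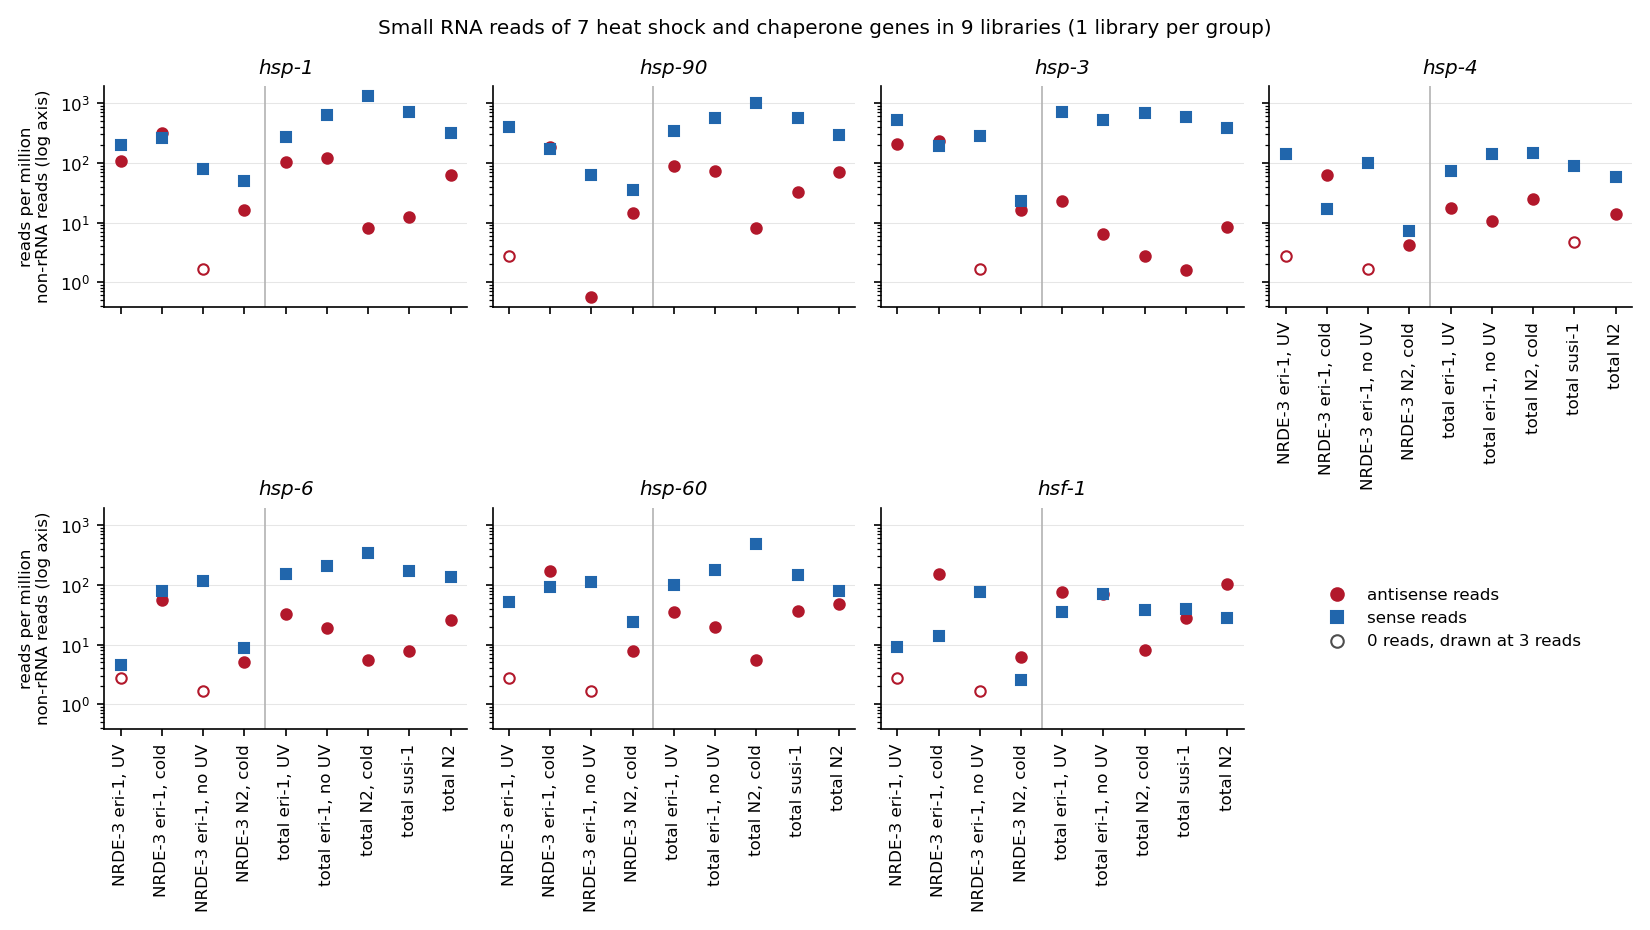
Antisense (circles) and sense (squares) reads per 1000000 non-rRNA reads on a log axis, for each of 7 genes (panels) in 9 libraries of 1 sample each, NRDE-3-bound left of the line and total right of it; open symbols are genes at 0 reads, drawn at the level of 3 reads. Sense reads lie above antisense reads for the 6 chaperone genes in all 5 total libraries, and in cold-shocked N2 the sense reads of hsp-1 reach 1317 CPM while its antisense reads are at 8.13 CPM.

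In cold-shocked N2 embryos the strands of the chaperone genes moved in opposite directions relative to non-rRNA reads, although the sense direction turned round when all assigned reads, rRNA included, were the scale. Antisense reads of 5 of the 6 genes with enough reads were called lower in cold-shocked N2 and 0 were called higher. Sense reads of 5 of the 7 genes were called higher and 0 lower. Summed over the 7 genes, antisense reads were 23 in cold-shocked N2 (62.3 CPM) and 356 in untreated N2 (332 CPM), a ratio of 0.188 (0.117 to 0.286). Summed sense reads were 1485 in cold-shocked N2 (4025 CPM) and 1392 in untreated N2 (1299 CPM), a ratio of 3.10 (2.88 to 3.34). Protein-coding genes as a whole moved in the same directions. Of 3052 with enough antisense reads 87.3% were called lower, with a median log2 ratio of −2.96, and of 4435 with enough sense reads 43.7% were called higher, with a median of 0.91. The antisense values of the members lay around that background, so their fall is not a result about chaperone genes.

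Among sense reads, 3 cytosolic and mitochondrial chaperone genes had the highest ratios of the members. For the chaperonin gene hsp-60 there were 176 sense reads in cold-shocked N2 (477 CPM) and 83 in untreated N2 (77.4 CPM), a ratio of 6.16 (4.72 to 8.10), and 8.21% of the tested coding genes had a higher ratio. For hsp-1 there were 486 sense reads in cold-shocked N2 (1317 CPM) and 341 in untreated N2 (318 CPM), a ratio of 4.14 (3.60 to 4.77), exceeded by 16.7% of genes. For hsp-90 there were 372 sense reads in cold-shocked N2 (1008 CPM) and 314 in untreated N2 (293 CPM), a ratio of 3.44 (2.95 to 4.01), exceeded by 22.6% of genes. These 3 genes had intervals that lay wholly above the coding median ratio of 1.89. So did the mitochondrial HSP70 gene hsp-6, by little, with a ratio of 2.56 (2.00 to 3.28; 127 reads in cold-shocked N2, 144 in untreated N2). The 2 BiP genes followed, with 2.54 (1.73 to 3.70) for hsp-4 and 1.78 (1.51 to 2.08) for hsp-3, which was not called. Sense reads of hsf-1 numbered 14 in cold-shocked N2 and 30 in untreated N2, a ratio of 1.36 (0.66 to 2.64), also not called.

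Antisense reads after cold were few. For hsf-1, the member with the most antisense reads in untreated N2, there were 3 in cold-shocked N2 (8.13 CPM) and 111 in untreated N2 (104 CPM), a ratio of 0.079 (0.016 to 0.235). Both cytosolic chaperones had 3 reads in cold-shocked N2, against 67 for hsp-1 and 74 for hsp-90 in untreated N2, with ratios of 0.130 (0.026 to 0.397) and 0.118 (0.024 to 0.358). Both mitochondrial genes had 2 reads in cold-shocked N2, against 28 for hsp-6 (ratio 0.207, 0.024 to 0.823) and 52 for hsp-60 (ratio 0.112, 0.013 to 0.424) in untreated N2. The exception was hsp-4, with 9 antisense reads in cold-shocked N2 (24.4 CPM) and 15 in untreated N2 (14.0 CPM). Its ratio of 1.74 (0.67 to 4.25) had an interval above the coding median of 0.129, and 2.46% of tested genes had a higher ratio. Its paralog hsp-3 had 1 read in cold-shocked N2 and 9 in untreated N2, too few to call.

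The size and, for sense reads, the direction of the cold values depended on the scaling. The rRNA share was 95.6% in cold-shocked N2 and 82.6% in untreated N2, and over all assigned reads the summed sense ratio was 0.789 (0.732 to 0.849). Over sense reads of protein-coding genes it was 1.58, with 3.14 for hsp-60, 2.11 for hsp-1, 1.75 for hsp-90 and 0.91 for hsp-3, and the intervals of hsp-60, hsp-1, hsp-90 and hsp-6 lay above 1 on that scale. Over antisense reads of protein-coding genes the summed antisense ratio was 0.897 (0.561 to 1.37). Of the coding genes called for sense reads, 84.8% were higher over non-rRNA reads, 65.1% with DESeq2 size factors, 61.7% with edgeR's TMM and 43.4% over sense coding reads; for antisense reads 2.45% were higher over non-rRNA reads and 27.7% over antisense coding reads. The embryonic microRNAs mir-35 to mir-42 were at 23925 CPM in cold-shocked N2 and 47857 CPM in untreated N2, and the labels name no matching incubation for the untreated embryos. Cold and embryo age cannot be told apart here. On the log2 scale, all sense ratios of this pair shift by −1.97 over all assigned reads, −0.97 over sense coding reads, −0.54 with DESeq2, −0.61 with TMM and 2.02 over microRNA reads.

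**Figure D2:**
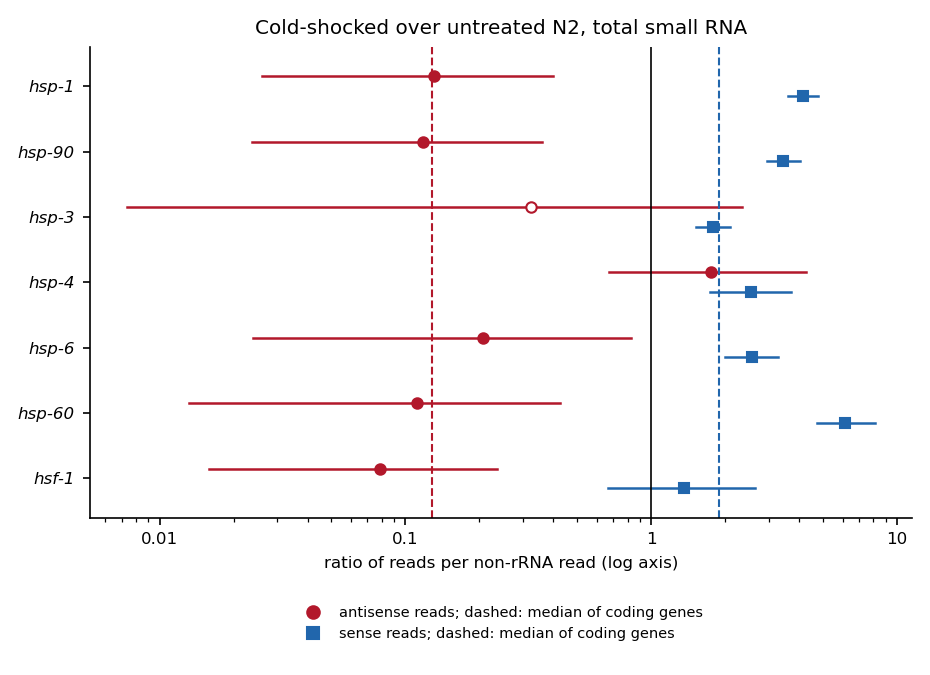
Ratio of reads in cold-shocked over untreated N2, total small RNA, for antisense (circles) and sense (squares) reads of each gene on a log axis, with 95% intervals from counting error and dashed lines at the median of protein-coding genes; the open circle had under 20 reads. The sense ratios of hsp-60 (6.16), hsp-1 (4.14) and hsp-90 (3.44) lie to the right of the sense median of 1.89, and the antisense ratio of hsp-4 (1.74) lies far from the antisense median of 0.129.

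In total RNA of eri-1 embryos with UV, the ER chaperone gene hsp-3 had the highest ratio to the library without UV on both strands. Antisense reads of hsp-3 numbered 73 with UV (23.4 CPM) and 9 without UV (6.36 CPM), a ratio of 3.68 (1.83 to 8.36). It was the 1 member called higher on this strand, where 21.1% of 6178 tested coding genes were called higher, and 10.4% of them had a higher ratio. Sense reads of hsp-3 numbered 2227 with UV (713 CPM) and 752 without UV (531 CPM), a ratio of 1.34 (1.24 to 1.46), which was not called. The median sense ratio of coding genes was 0.610, and 10.3% had a higher ratio than hsp-3.

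The other 6 genes stayed within 2-fold on the antisense strand. The mitochondrial genes had ratios of 1.80 for hsp-60 (1.18 to 2.83; 111 reads with UV, 28 without) and 1.71 for hsp-6 (1.11 to 2.72; 102 reads with UV, 27 without). The ratio was 1.66 (0.93 to 3.17) for hsp-4, 1.18 (0.94 to 1.50) for hsp-90, 1.09 (0.86 to 1.39) for hsf-1 and 0.840 (0.696 to 1.02) for hsp-1. The hsp-1 interval lay below the coding median of 1.32. In sum, antisense reads were 1172 with UV (375 CPM) and 455 without UV (321 CPM), a ratio of 1.17 (1.05 to 1.30), and over antisense coding reads 1.02 (0.914 to 1.14).

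On the sense strand 1 member was called lower with UV, where 30.5% of 7292 tested coding genes were called lower. This was hsp-1, with 852 sense reads with UV (273 CPM) and 895 without UV (632 CPM), a ratio of 0.432 (0.392 to 0.475). Its interval lay below the coding median of 0.610, and that of hsp-3 lay above it. For hsp-90 the sense reads were 1068 with UV (342 CPM) and 800 without UV (565 CPM), a ratio of 0.605 (0.552 to 0.664), at the coding median. The remaining sense ratios were 0.509 for hsp-4 (0.420 to 0.618), 0.509 for hsf-1 (0.384 to 0.675), 0.565 for hsp-60 (0.477 to 0.671) and 0.725 for hsp-6 (0.626 to 0.841). The BiP paralogs thus differed, with sense intervals that did not overlap. The share of non-rRNA reads was larger with UV, with rRNA at 68.4% of reads with UV and 86.2% without, and over all assigned reads the summed sense ratio was 1.66. Among coding genes called for sense reads 10.1% were higher over non-rRNA reads, 26.0% with TMM, 22.1% with DESeq2 and 50.0% over sense coding reads. On the last scale the sense ratio was 1.98 for hsp-3 and 0.637 for hsp-1. The log2 shift of this pair's sense ratios is 1.197 over all assigned reads, 0.56 over sense coding reads, 0.25 with DESeq2, 0.31 with TMM and −0.64 over microRNA reads.

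Among small RNAs bound to NRDE-3 in eri-1 embryos with UV, antisense reads of the members came from hsp-3 and hsp-1. There were 223 antisense reads of hsp-3 with UV (205 CPM) and 0 without UV. This is 122-fold higher when the 0 is set to a floor of 3 counts in that library, and the exact interval began at 98.4. For hsp-1 there were 119 with UV (109 CPM) and 0 without UV, 65.1-fold higher with the same floor, and the interval began at 52.1. The other 5 members had 0 antisense reads with UV, and without UV they had 0 except for 1 read of hsp-90. Of 620 tested coding genes 54.8% were called higher and 40.5% lower on this strand, in libraries where most coding genes had 0 reads. The hsp-3 reads lay on the 3 entries C15H9.6a.1, C15H9.6a.2 and C15H9.6a.3, at 72, 67 and 84 reads, with 0 on C15H9.6b, and the hsp-1 reads were 70 and 49 on its 2 entries. In total RNA of the same condition C15H9.6b did have antisense reads, 11 of 73.

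Sense reads in the NRDE-3 libraries moved in both directions with UV. Coding reads of these libraries were nearly all sense, with 4.51% antisense with UV and 2.15% without. The 7 genes summed to 1447 sense reads with UV and 1471 without UV, a ratio of 1.61 (1.50 to 1.74) over non-rRNA reads. The cytosolic chaperones were called higher: hsp-90 had 438 reads with UV (403 CPM) and 113 without UV (63.4 CPM), a ratio of 6.36 (5.16 to 7.89), and hsp-1 had 220 reads with UV (202 CPM) and 142 without UV (79.6 CPM), a ratio of 2.54 (2.05 to 3.16). Among 4775 tested coding genes 39.9% were called higher and 39.3% lower. The mitochondrial genes and the regulator were called lower. For hsp-6 there were 5 reads with UV (4.60 CPM) and 207 without UV (116 CPM), a ratio of 0.040 (0.013 to 0.094). The ratio was 0.119 (0.056 to 0.225) for hsf-1 and 0.477 (0.349 to 0.644) for hsp-60. The BiP genes were not called, at 1.87 (1.65 to 2.11) for hsp-3 and 1.39 (1.11 to 1.74) for hsp-4. A coding gene was thus about as often called in one direction as in the other, and the members' split was of that kind.

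**Figure D3:**
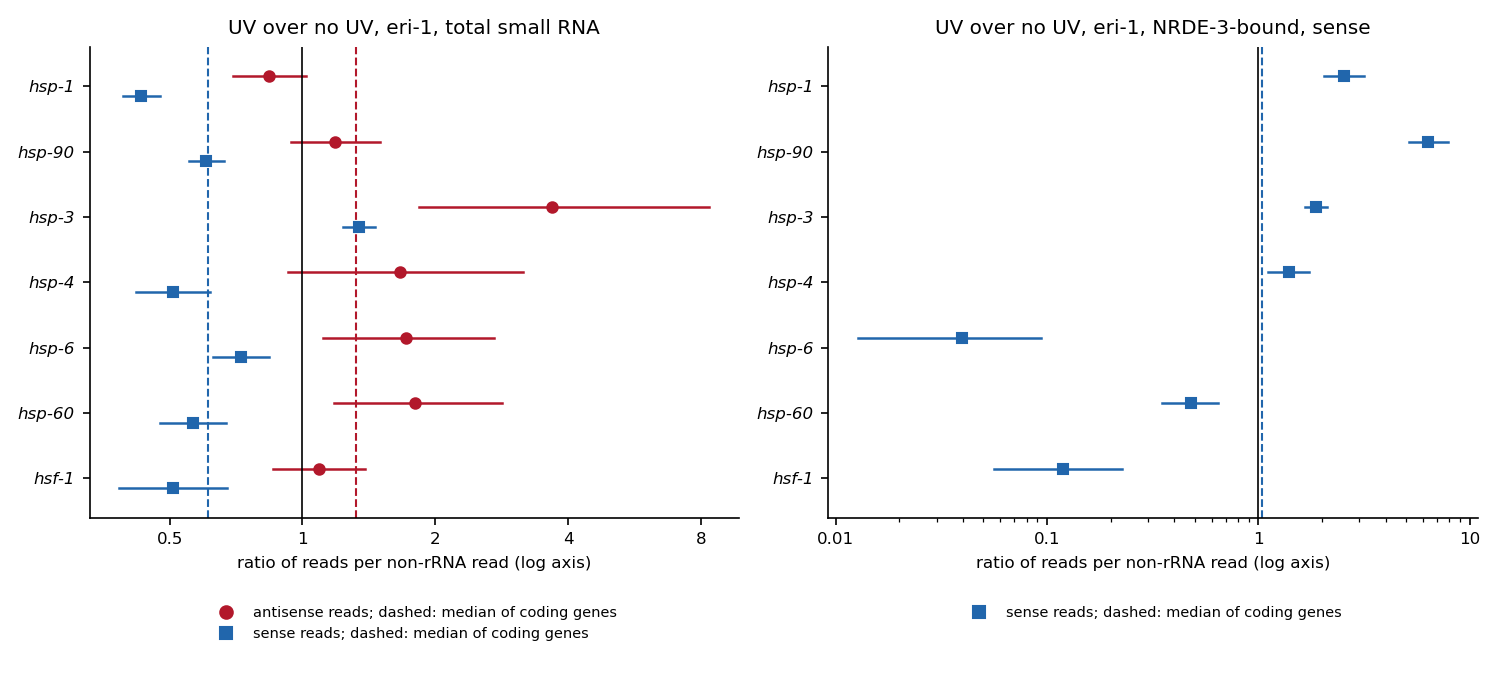
Ratio of reads with UV over without UV in eri-1 embryos for each gene on log axes, in total small RNA (left; antisense circles, sense squares) and on the sense strand of NRDE-3-bound RNA (right), with 95% counting intervals and dashed lines at the median of protein-coding genes. In total RNA the antisense ratio of hsp-3 is 3.68 and the sense ratio of hsp-1 is 0.432; in NRDE-3-bound RNA the sense ratios span 0.040 for hsp-6 to 6.36 for hsp-90.

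In NRDE-3-bound RNA of cold-shocked eri-1 embryos all 7 genes had antisense reads. They summed to 418 reads (1169 CPM) in cold-shocked eri-1 and 1 read (0.561 CPM) in eri-1 without UV, and all 7 were called higher. So were 92.7% of 2294 tested coding genes, so the members followed the background. By gene the cold-shocked library held 112 reads of hsp-1, 83 of hsp-3, 65 of hsp-90, 62 of hsp-60, 54 of hsf-1, 22 of hsp-4 and 20 of hsp-6. The 6 genes with 0 reads without UV were 33.3-fold (hsp-6) to 186-fold (hsp-1) higher against a floor of 3 counts. The exact intervals of hsp-6 and hsp-1 began at 24.6 and 149, and over antisense coding reads at 0.725 and 4.38. For hsp-90, with 1 read without UV, the ratio was 324 (56.2 to 13005). The 2 libraries differ in more than cold: the protocols name plates without food for the UV experiment only, and the library without UV is one of the pair that stood apart. The part of these differences was not tested. Of the antisense calls over all coding genes, 96.1% were higher over non-rRNA reads and 84.0% over antisense coding reads.

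In this comparison sense reads of the cytosolic chaperones were called higher, unlike those of most coding genes. The sense reads of hsp-1 were 94 in cold-shocked eri-1 (263 CPM) and 142 in eri-1 without UV (79.6 CPM), a ratio of 3.30 (2.52 to 4.32), and those of hsp-90 were 62 (173 CPM) and 113 (63.4 CPM), a ratio of 2.74 (1.98 to 3.76). Only 5.96% of 3642 tested coding genes were called higher and 81.6% were called lower, with a median log2 ratio of −3.44. Those called lower included hsp-4, at 0.168 (0.061 to 0.373), and hsf-1, at 0.181 (0.058 to 0.432). Not called were hsp-60 at 0.840 (0.563 to 1.22), hsp-3 at 0.693 (0.531 to 0.893) and hsp-6 at 0.675 (0.438 to 1.00). All 7 ratios lay above the coding median ratio of 0.0924, though the intervals of hsp-4 and hsf-1 included it. Of tested coding genes 5.27% had a higher ratio than hsp-1 and 5.46% a higher ratio than hsp-90. The shares were 10.3% for hsp-60, 11.9% for hsp-3 and 12.0% for hsp-6, so a high rank was not particular to the cytosolic genes. Among coding calls 6.80% were higher over non-rRNA reads, 18.5% with TMM, 23.1% with DESeq2 and 23.5% over sense coding reads. On the log2 scale the sense ratios of this pair shift by −1.47 over all assigned reads, and neither hsp-1 nor hsp-90 is then called.

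In cold-shocked embryos the NRDE-3-bound antisense reads of the 7 genes were 418 in eri-1 (1169 CPM) and 135 in N2 (69.8 CPM), a ratio of 16.7 (13.8 to 20.5). All 7 were called higher, as were 92.9% of 2842 tested coding genes, whose median ratio was 17.3. Single ratios ran from 10.8 (4.83 to 25.9) for hsp-6 to 24.3 (12.9 to 50.0) for hsf-1, with every interval around the coding median. Sense reads of 5 of the 6 members with enough reads were called higher, where 85.1% of 980 coding genes were. The ratios called ran from 3.88 for hsp-60 to 8.91 for hsp-6. The 7 genes summed to 297 sense reads in eri-1 and 291 in N2, a ratio of 5.52 (4.68 to 6.51). These sizes rest on the scaling. The summed antisense ratio was 21.5 over antisense coding reads, 5.33 over microRNA reads, 2.17 over all assigned reads and 1.82 to 1.83 with DESeq2 and TMM. The summed sense ratio turned round, to 0.876 (0.742 to 1.03) over sense coding reads, 0.714 over all assigned reads and 0.600 to 0.604 with DESeq2 and TMM.

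In total RNA of susi-1(R457H), 4 of the 5 members with enough antisense reads were called lower, against 56.7% of 3494 coding genes. Antisense reads of hsp-3 and hsp-4 were too few to call. The sum was 76 reads in susi-1 (120 CPM) and 356 in N2 (332 CPM), a ratio of 0.361 (0.278 to 0.463). Over antisense coding reads it was 0.718 (0.553 to 0.922), over microRNA reads 0.937 (0.722 to 1.203) and over all assigned reads 0.210. The member ratios spread widely. For hsp-1 there were 8 antisense reads in susi-1 and 67 in N2, a ratio of 0.202 (0.084 to 0.421), and for hsp-60 there were 23 in susi-1 and 52 in N2, a ratio of 0.747 (0.436 to 1.24). The hsp-60 interval lay above the coding median of 0.411. The ratios of hsf-1, hsp-6 and hsp-90 were 0.274, 0.302 and 0.479. Among sense reads hsp-1 was called higher, with a ratio of 2.23 (1.93 to 2.57; 450 reads in susi-1, 341 in N2), where 20.0% of 4692 coding genes were called higher; over sense coding reads this ratio was 1.41 (1.22 to 1.63), which is not a call.

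In total RNA of eri-1 without UV the summed antisense reads were 455 (321 CPM), and 356 (332 CPM) in N2, a ratio of 0.967 (0.840 to 1.11). Over antisense coding reads it was 1.58 (1.37 to 1.82). This pair also differs in the transgene and in the plates named in the protocols. The member called lower was hsp-60, with 28 reads in eri-1 (19.8 CPM) and 52 in N2 (48.5 CPM), a ratio of 0.408 (0.248 to 0.657), where 23.9% of 4514 coding genes were called lower. For hsp-1 the antisense reads were 171 in eri-1 (121 CPM) and 67 in N2 (62.5 CPM), a ratio of 1.93 (1.45 to 2.602), just inside the 2-fold limit, and 4.34% of tested genes had a higher ratio. Its interval lay above the coding median of 0.691, and over antisense coding reads its ratio was 3.15 (2.36 to 4.25). Sense reads of hsf-1, hsp-4 and hsp-60 were called higher in eri-1, at ratios of 2.47, 2.44 and 2.25, and so were 34.5% of 6129 coding genes.

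NRDE-3-bound RNA was also set against total RNA of the same treatment. The cold-shocked N2 pair also differs in the transgene, which is named for its NRDE-3 library only. In cold-shocked N2 the members' antisense reads were at 69.8 CPM in NRDE-3-bound RNA and 62.3 CPM in total RNA, a ratio of 1.12 (0.716 to 1.83). This value rests on the scaling: it was 0.098 (0.063 to 0.160) over antisense coding reads and 12.19 (7.80 to 19.9) over all assigned reads. Only 3 members, hsp-1, hsp-90 and hsp-3, had enough reads, and none of them was called, where 41.4% of 1043 coding genes were called higher and 13.6% lower. With 8 reads in NRDE-3-bound RNA and 9 in total RNA, too few to call, hsp-4 had a ratio of 0.170 (0.057 to 0.495). Sense reads of all 6 members with enough reads were called lower in NRDE-3-bound RNA, as were 95.8% of 2363 coding genes. The sum over the members was 0.037 times that in total RNA, or 0.571 times over sense coding reads. In eri-1 with UV 5 members were called lower for antisense reads, as were 93.7% of 5651 coding genes. The exceptions were hsp-3, with 205 CPM in NRDE-3-bound RNA and 23.4 CPM in total RNA (ratio 8.78, 6.71 to 11.6), and hsp-1, with 109 CPM in NRDE-3-bound RNA and 101 CPM in total RNA (ratio 1.08, 0.866 to 1.34). Over antisense coding reads these ratios were 50.1 for hsp-3 and 6.16 for hsp-1. On the log2 scale the antisense ratios of this pair shift by −1.57 over all assigned reads, −1.68 with DESeq2 and −1.66 with TMM. With each of these hsp-1 would be called lower too, while hsp-3 would still be called higher. The shift over microRNA reads is 3.16. In eri-1 without UV all 5 members with enough antisense reads were called lower, as were 92.1% of 2678 coding genes.

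The regulator hsf-1 differed from the chaperone genes in the makeup of its reads. Antisense reads were 68.6% of the hsf-1 reads in eri-1 with UV, 50.5% in eri-1 without UV, 17.6% in cold-shocked N2, 41.9% in susi-1 and 78.7% in untreated N2. The value in cold-shocked N2 rests on 3 antisense and 14 sense reads (exact interval 3.80% to 43.4%). In each of these 5 total libraries hsf-1 had the highest antisense share of the 7 genes and lay above the median of coding genes, which was 45.2%, 22.4%, 1.69%, 12.32% and 48.9% in the same order. The 6 chaperone genes ranged from 3.17% to 27.1% in eri-1 with UV and from 1.18% to 16.0% in eri-1 without UV. Their range was 0.391% to 14.1% in cold-shocked N2, 0% to 19.8% in susi-1 and 2.11% to 38.5% in untreated N2. The lowest share in each total library belonged to a BiP gene, hsp-4 in susi-1 and hsp-3 in the other 4. In susi-1 the interval of hsp-4 (0% to 6.38%) overlapped that of hsp-1, and in cold-shocked N2 so did that of hsp-3 (0.010% to 2.16%). A low share was not common to both BiP genes, as hsp-4 had 14.1% in cold-shocked N2 and 19.2% in untreated N2. All 6 chaperone genes lay below the coding median in eri-1 with UV, eri-1 without UV and untreated N2, and 5 of 6 did in cold-shocked N2, where hsp-4 was above it, and in susi-1, where hsp-60 was. In NRDE-3-bound RNA of cold-shocked embryos, hsf-1 had 91.5% antisense reads in eri-1 and 70.6% in N2, beside coding medians of 88.0% and 77.3%.

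**Figure D4:**
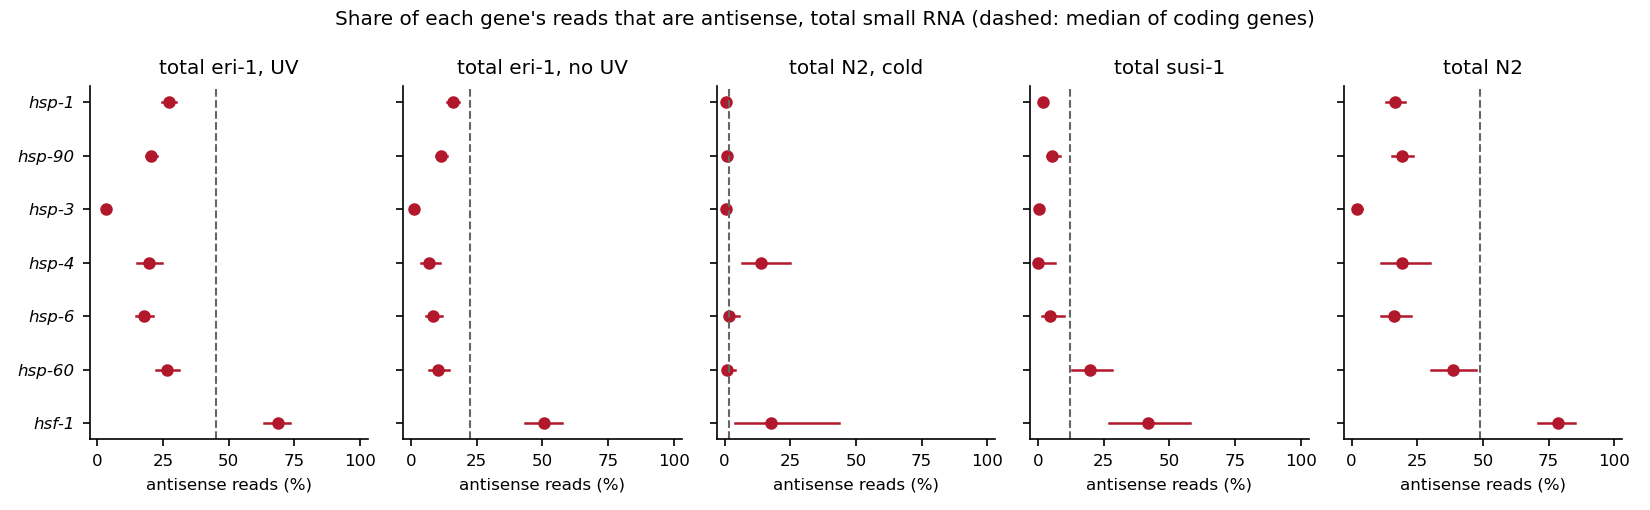
Share of each gene's reads that are antisense, in percent, in the 5 total small RNA libraries (panels, 1 sample each), with exact 95% binomial intervals and a dashed line at the median of protein-coding genes with 20 or more reads. The hsf-1 share is 78.7% in untreated N2 and 17.6% in cold-shocked N2, and it is the highest of the 7 genes in all 5 panels.

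Per kilobase of exon, sense levels in untreated N2 were 153 CPM per kb for hsp-1, 146 for hsp-3, 124 for hsp-90, 54.6 for hsp-6, 36.5 for hsp-60, 26.3 for hsp-4 and 11.3 for hsf-1. The pairs hsp-1 and hsp-3, and hsp-60 and hsp-4, did not differ beyond counting error, and the other neighbours did. In cold-shocked N2 the order was hsp-1, hsp-90, hsp-3, hsp-60, hsp-6, hsp-4 and hsf-1, from 635 to 15.3 CPM per kb, with hsp-3 and hsp-60 not apart. The highest sense level per kilobase was that of hsp-1 in 6 libraries and that of hsp-3 in 3, which were eri-1 with UV (total and NRDE-3-bound) and the NRDE-3 library without UV. Antisense levels in untreated N2 were led by hsf-1 at 41.8 CPM per kb, then hsp-1 at 30.2 and hsp-90 at 29.3, with hsp-3 lowest at 3.15. Here hsf-1 and hsp-1, and hsp-60 and hsp-6, differed beyond counting error, and the other neighbours, hsp-4 and hsp-3 among them, did not. In NRDE-3-bound RNA of cold-shocked eri-1, hsp-1 led at 151 CPM per kb, apart from the next gene, hsp-3, at 87.1. The lowest 2 genes, hsp-4 at 27.6 and hsp-6 at 22.7, were not apart.

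Part of the antisense signal of hsp-90 lay on 1 of its 4 transcript entries. The entry C47E8.5.2 held 146 of 274 antisense reads in eri-1 with UV, 51 of 105 in eri-1 without UV, 17 of 21 in susi-1 and 34 of 74 in untreated N2. In NRDE-3-bound RNA of cold-shocked embryos it held 22 of 65 in eri-1 and 8 of 28 in N2. Of hsp-90 sense reads it held 22.4% to 38.7% across the 9 libraries, a range that takes in both of those NRDE-3 shares (33.8% and 28.6%). By position the first exon of the hsp-90 gene, of 126 nt at V:14684918-14685043, lies inside C47E8.4, a gene on the opposite strand at V:14683698-14685485. Antisense reads of hsp-90 there cannot be told apart from reads of the C47E8.4 strand. Whether C47E8.5.2 holds this exon, or holds it alone, was not examined. Sense reads counted for C47E8.4 itself numbered 35 in eri-1 with UV, 36 in eri-1 without UV, 10 in susi-1 and 19 in untreated N2. Without this entry the antisense ratio of hsp-90 was 1.07 (0.776 to 1.51) for UV over no UV in total RNA, 0.169 (0.044 to 0.467) for susi-1 over N2 and 0.073 (0.002 to 0.429) for cold-shocked over untreated N2, with 1 and 40 reads in the last pair. The susi-1 value was 0.479 (0.280 to 0.787) with the entry.

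The wider chaperone network was described with 8 lists of genes outside the members. After cold shock in N2, the cytosolic chaperonin TRiC and its partner prefoldin had sense reads called higher for 8 of 10 genes with enough reads, with a median log2 ratio of 1.93 against 0.91 for all coding genes. Of these, cct-7 had 239 CPM in cold-shocked N2 and 48.5 CPM in untreated N2 (ratio 4.92, 3.45 to 7.07), and cct-3 had 195 CPM in cold-shocked N2 and 47.6 CPM in untreated N2 (ratio 4.10, 2.83 to 5.99). Sense reads of the mitochondrial unfolded protein response genes were called higher for 5 of 10, HSP40 genes for 6 of 17 with 1 lower, HSP90 co-chaperones for 3 of 9 and ER folding genes for 4 of 17, where 43.7% of coding genes were called higher. On this strand 7.82% of coding genes were called lower. Small heat shock proteins had 3 of 10 called higher and 4 lower, with a median of −0.98, and the HSP70 and HSP110 genes had 3 higher and 2 lower of 5, with a median of 1.68. Both medians change sign when 50 reads are required, to 0.46 for small heat shock proteins and −1.67 for HSP70 and HSP110 genes. Those lower were F44E5.4 and F44E5.5, neighbouring HSP70 genes, each at 35.2 CPM in cold-shocked N2, against 116 and 120 CPM in untreated N2. Antisense reads were called lower for 7 of 7 HSP40 genes, 8 of 8 ER folding genes, 4 of 4 mitochondrial genes, 3 of 4 co-chaperones, 4 of 5 TRiC and prefoldin genes, 2 of 2 HSF-1 regulators and 0 of 1 HSP70 or HSP110 gene, where 87.3% of coding genes were called lower. No small heat shock protein gene had enough antisense reads, and the 1 HSF-1 regulator with enough sense reads, sir-2.1, was called higher on that strand.

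With UV in total RNA of eri-1, antisense reads of 10 of 17 tested genes of the ER list were called higher, with a median log2 ratio of 1.22 against 0.40 for all coding genes. The median was 2.15 for HSP70 and HSP110 genes (2 of 4 higher), 0.86 for small heat shock proteins (2 of 6), 0.75 for TRiC and prefoldin (5 of 11), 0.68 for co-chaperones (2 of 11), 0.48 for HSP40 (6 of 21), 0.47 for the mitochondrial list (2 of 10) and 0.15 for HSF-1 regulators (0 of 3), where 21.1% of coding genes were called higher. In the HSP70 list F44E5.4 had 117 antisense reads with UV and 4 without UV, a ratio of 13.3 (5.04 to 49.5). On the sense strand ER genes had a median of −0.48 against −0.71 for all coding genes, with 2 of 18 called lower. Sense reads were called lower for 12 of 25 HSP40 genes, 6 of 12 co-chaperones, 6 of 14 TRiC and prefoldin genes, 5 of 10 mitochondrial genes, 1 of 5 HSF-1 regulators and 1 of 6 HSP70 and HSP110 genes, with none called higher in these lists, where 30.5% of coding genes were called lower. Small heat shock proteins had 3 of 11 called higher and 2 lower, with a median of 0.23, where 3.44% of coding genes were called higher. Sense reads of crt-1, which encodes calreticulin, were at 686 CPM with UV and 751 CPM without UV. Both genes named hsp-16.48 were called higher on the sense strand, at ratios of 2.67 (2.20 to 3.27) and 3.36 (2.70 to 4.23). Copies such as F44E5.4 and F44E5.5, the hsp-16 genes, and to an unknown extent the BiP paralogs may share reads. Single values of them, and the counts and medians of lists that hold them, are therefore uncertain. In the NRDE-3 library of eri-1 without UV, F44E5.5 and F44E5.4 alone had 20496 and 18888 sense reads.

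**Figure D5:**
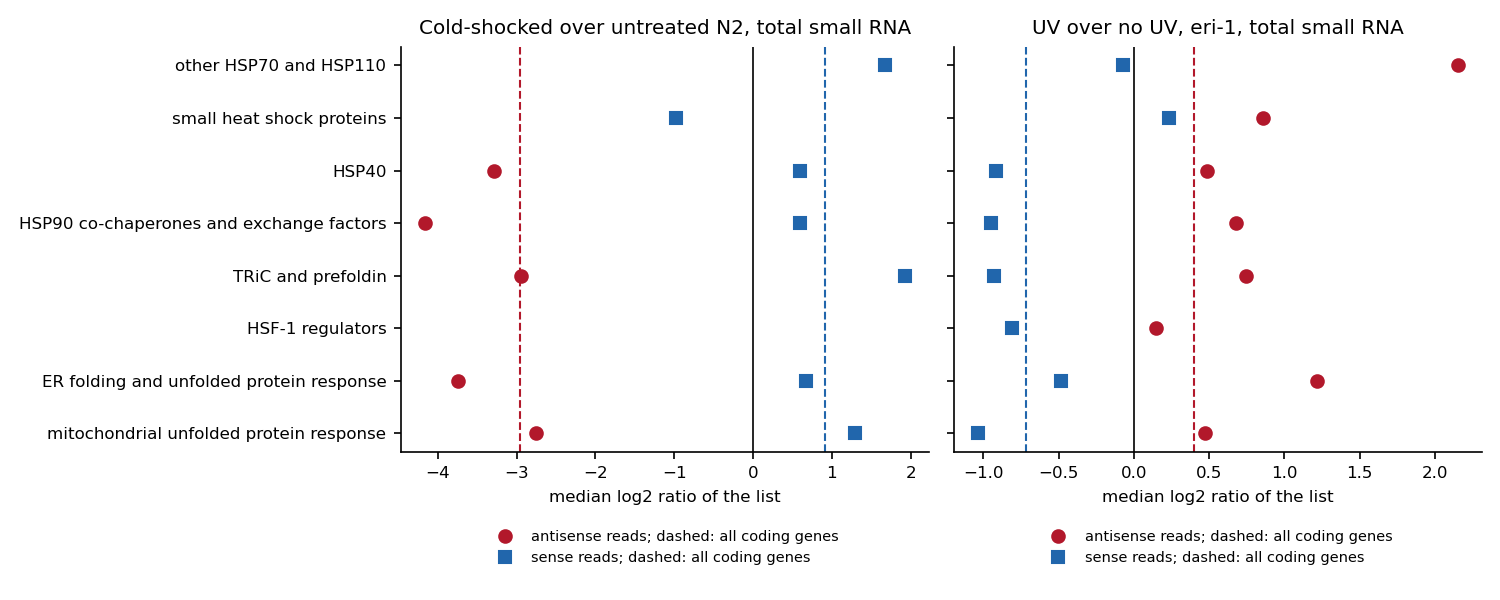
Median log2 ratio of genes with 20 or more reads for each list with 3 or more such genes, cold-shocked over untreated N2 (left) and UV over no UV in eri-1 (right), total small RNA, antisense circles and sense squares, with dashed lines at the median of all protein-coding genes. TRiC and prefoldin sense reads reach 1.93 after cold, and the antisense medians with UV are 2.15 for HSP70 and HSP110 genes and 1.22 for ER genes.

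By antisense level across the 9 libraries, as log2 of CPM plus 1, the genes most like hsp-1 among 1961 with 200 or more antisense reads were Y82E9BR.17 (Pearson r 0.989), qdpr-1 (0.988) and egl-30 (0.984). Those most like hsp-90 were F19F10.11, xnp-1 and rrf-2, with r from 0.995 to 0.996. The points share their libraries, whose antisense coding reads ran from 2.15% to 96.3% of coding reads.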

How the data were processed

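The deposited small RNA files hold whole-number counts of reads per transcript entry, split into sense and antisense reads per the file headers. The submitters' processing notes name Bowtie2; its version, the genome build and the handling of reads with several matches are not given in the sources used here. Phosphatase and kinase treatment and gel selection of 20 to 30 nt RNA came first, per the labels' protocols. Entries were summed by WormBase gene ID, since the members' entries carry no locus name, and matched to the Ensembl 115 annotation of WBcel235 (44852 of 45510 genes). Ratios, intervals (scipy 1.17.1) and calls were computed in Python 3.11.15 and tested on simulated data. DESeq2 1.42.0 and edgeR 4.0.16 gave alternative scaling factors only. A median log2 ratio had 0.5 reads added to each count. The members and lists were chosen with earlier results of these data known. Named genes were all members, the 2 genes of each list with the most reads of the strand, and the 3 genes most like each of the 2 members with the most antisense reads; of these the text gives the main ones. No sequence of the members was used here.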

Additional observations from a re-analysis of the deposited data

Results flagged for a closer look

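For 3 members, UV moved sense reads in opposite directions in NRDE-3-bound and total RNA of eri-1 embryos, with both intervals excluding 1. For hsp-90 the ratio of UV over no UV was 6.36 in NRDE-3-bound RNA and 0.605 in total RNA. For hsp-1 it was 2.54 in NRDE-3-bound RNA and 0.432 in total RNA. For hsp-4 it was 1.39 in NRDE-3-bound RNA and 0.509 in total RNA. These directions were opposite over non-rRNA reads, same-strand coding reads and microRNA reads and with DESeq2 and TMM. Over all assigned reads they were not: hsp-90 was at 3.93 in NRDE-3-bound RNA and 1.39 in total RNA, hsp-1 at 1.57 in NRDE-3-bound RNA and 0.990 in total RNA, and hsp-4 at 0.861 in NRDE-3-bound RNA and 1.17 in total RNA, with the intervals of hsp-4 and of hsp-1 in total RNA including 1. Each value rests on 1 library per group, and the difference between the RNA fractions was not tested. The NRDE-3 libraries of this experiment had sense reads at 4323 coding genes with UV and 3961 without UV, against 13592 and 12991 in total RNA. Of the coding reads in these NRDE-3 libraries, 4.51% were antisense with UV and 2.15% without. Coding genes as a whole also differed between the fractions, with median sense ratios of 1.04 in NRDE-3-bound RNA and 0.610 in total RNA. Of those tested, 39.9% were called higher and 39.3% lower in NRDE-3-bound RNA, and 30.5% were called lower in total RNA. The share of coding genes that moved in opposite directions was not counted.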

How the results depend on the processing

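All values are ratios of the members' summed reads. For cold-shocked over untreated N2, the antisense ratio of 0.188 was 0.0478 over all assigned reads, 0.897 over antisense coding reads and 0.764 over microRNA reads. The sense ratio of 3.10 reversed to 0.789 over all assigned reads and was 1.58 over sense coding reads, 12.61 over microRNA reads, 2.13 with DESeq2, 2.03 with TMM and 3.66 without hsp-3. Over all assigned reads single sense ratios reversed too, to 0.876 (0.752 to 1.02) for hsp-90, 0.645 for hsp-4 and 0.652 for hsp-6; hsp-3, not called, was at 0.452 (0.385 to 0.530), hsp-1 at 1.05 and hsp-60 at 1.57 (1.201 to 2.06). For UV over no UV in total RNA, the antisense ratio of 1.17 was 2.68 over all assigned reads, 1.02 over antisense coding reads, 0.750 over microRNA reads, 1.39 with DESeq2, 1.45 with TMM and 1.36 without hsp-1. The sense ratio of 0.725 was 1.66, 1.07, 0.466, 0.864 and 0.898 under the same 5 scalings, 0.659 from the largest entry per gene and 0.543 without hsp-3. For UV in NRDE-3-bound RNA, the sense ratio of 1.61 was 0.998 over all assigned reads, 3.84 over microRNA reads, 1.49 with DESeq2, 1.11 from the largest entry and 1.48 without hsp-3; hsp-60 reversed to 1.13 over microRNA reads. For cold over no UV in NRDE-3-bound RNA of eri-1, the antisense ratio of 2086 was 61.4 over antisense coding reads. The sense ratio of 1.01 was 0.364 over all assigned reads, 4.29 over sense coding reads, 2.49 over microRNA reads, 4.22 with DESeq2, 3.41 with TMM and 1.17 without hsp-3, and hsp-90 reversed to 0.989 over all assigned reads. For the other pairs, the scalings were added after seeing the data. The susi-1 over N2 antisense ratio of 0.361 was 0.210 over all assigned, 0.718 over antisense coding and 0.937 over microRNA reads, and that of eri-1 without UV over N2 (0.967) was 0.767, 1.58 and 0.751. Over all assigned, same-strand coding and microRNA reads, DESeq2 and TMM, in this order, the cold NRDE-3 ratio of eri-1 over N2 was 2.17, 21.5, 5.33, 1.82 and 1.83 for antisense reads (16.7 as reported) and 0.714, 0.876, 1.76, 0.600 and 0.604 for sense reads (5.52). In the same order the ratio of NRDE-3-bound over total RNA of cold-shocked N2 was 12.19, 0.0979, 4.01, 11.7 and 12.22 for antisense reads (1.12) and 0.407, 0.571, 0.134, 0.392 and 0.408 for sense reads (0.037). The causes were not tested.

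Counts of coding genes called moved by over 1.5 times in 14 of 40 settings. For antisense reads they ranged over 530 to 3534 for cold in N2 (2731 as reported), 736 to 2065 for UV in total RNA (1358) and 993 to 6952 for cold in NRDE-3-bound RNA (2213); for sense reads over 1087 to 3770 (2283), 1234 to 3078 (2474) and 2080 to 5195 (3190). List medians moved beyond counting error in 26 of 114 settings. Ratios of single members moved beyond counting error in 131 of 210 settings and reversed in 5, so they are the least stable values here. Leaving out the hsp-90 entry C47E8.5.2, an alternative chosen after seeing the data, left all 6 sums it could be computed for within their intervals; without UV the NRDE-3 library then has 0 antisense reads, so no ratio was given. No paired analysis was possible because each group has 1 library, and no replicate could be left out for the same reason. Depth limits most the NRDE-3 library of cold-shocked eri-1, where 3 reads equal 8.39 CPM, and the total library of cold-shocked N2, where they equal 8.13 CPM.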
